A study of Arabidopsis thaliana with 12 samples.

Results

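Leaves of *Arabidopsis thaliana* plants that carry a *pTPR1:TPR1-GFP* transgene in the *eds1-2* mutant were compared with leaves of Col-0, the wild-type accession, gene by gene. The 2 genotypes, chosen by their labels, gave 6 of the 12 RNA libraries of the study, with 3 for each genotype. The other 6 libraries came from the TPR1-GFP line with an intact *EDS1* and from TPR1-GFP in the *sid2-1* mutant, 3 each, and are cited only where a value needs them. All plants were 5 weeks old, untreated, and grown on soil with 10 h of light per day at 22 °C and 60% humidity. Of 18884 genes in the deposited table, 18877 were tested. The 838 tested genes with locus codes from AT3G40000 to AT3G55000, the stretch of chromosome 3 around *EDS1*, were kept apart from the 18039 others.

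TPR1 (TOPLESS-RELATED 1) belongs to the TOPLESS family of corepressors, which bind no DNA themselves. Transcription factors or adaptors with an EAR motif, such as the Aux/IAA repressors of auxin responses and the NINJA adaptor of the JAZ repressors of jasmonate responses, bring them to genes, where they work with histone deacetylases. EDS1 is a lipase-like protein that pairs with PAD4 or SAG101 and, with helper immune receptors, relays signals from TIR-type receptors to salicylic acid (SA) and cell death. Plants with extra TPR1 are known for EDS1-dependent autoimmunity, so the comparison asks what a high level of TPR1 goes along with when that route is missing.

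What the comparison can resolve is set by the material. The transgene is driven by the promoter of *TPR1* itself. No *eds1-2* plants without the transgene were part of the study, so an effect of *eds1-2* and an effect of the transgene cannot be told apart. As background, *eds1-2* arose in the accession Landsberg *erecta* and was crossed into Col-0. The labels mention independent experiments but link no replicate number to one, so p-values measure the spread between these libraries. In whole leaves, fewer cells of a type and less RNA per cell cannot be told apart. All gene lists were chosen with earlier results of these data known, so their counts describe the listed genes only.

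Libraries held 21403388 to 27854906 counts for Col-0 and 21195080 to 23362262 for TPR1-GFP *eds1-2*, and the 12 libraries ran from 19628974 to 32018583. Levels are given as CPM, counts per 1000000 counts after TMM scaling, always in the order of replicates 1, 2 and 3. Differences are log2 ratios of TPR1-GFP *eds1-2* to Col-0 from edgeR with their standard error (SE), and a gene was called, and is said to have risen or fallen, at an adjusted p under 0.05. The Col-0 libraries spread widely in immune genes, with replicate 1 the highest and replicate 3 the lowest for the SA marker *PR1* (49.2, 14.3 and 1.58 CPM). Col-0 replicate 2 was the highest of the 3 for the touch gene *TCH4* (21.6, 76.6 and 40.05 CPM).

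Outside the stretch 1696 of 18039 genes rose (9.4%) and 1351 fell (7.49%), so that 16.9% were called. Of these, 867 genes (4.81%) rose and 473 (2.62%) fell by more than 1 log2 unit. All 3 TPR1-GFP *eds1-2* libraries lay above all 3 Col-0 libraries in 15.6% of genes and below them in 18.7%. The median log2 ratio was −0.05. When libraries were scaled by their totals alone, 2164 genes rose and 806 fell, so that rises made up 72.9% of calls in place of 55.7%. Without Col-0 replicate 2 the counts dropped to 1103 higher and 808 lower, and without TPR1-GFP *eds1-2* replicate 2 or replicate 3 to 847 or 715 lower. Against TPR1-GFP with an intact *EDS1*, which shares the TPR1-GFP *eds1-2* libraries with this comparison, 52.5% of the same genes were called, 25.2% higher and 27.3% lower.

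The TOPLESS genes and *EDS1* define the line. *TPR1* (TAIR10.1, chromosome 1, 30260818 to 30267125, minus strand) stood at 74.1, 73.5 and 68.3 CPM in Col-0 and at 1048, 1327 and 990.2 CPM in TPR1-GFP *eds1-2*. Every library of the line was far above every Col-0 library, a 15.6-fold rise (log2 3.96 ± 0.20 SE, adjusted p = 2.61e-07). Reads of the transgene and of the native gene were counted together. The means of TPR1-GFP and of the *sid2-1* line were 1635 and 1101 CPM.

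Of the 4 other family members 3 fell and 1 rose, beside 7.49% and 9.4% of all genes. *TPL*, which encodes TOPLESS itself (chromosome 1, 5414817 to 5421033), went from 105, 112 and 90.6 CPM in Col-0 to 32.9, 18.8 and 24.7 CPM. The groups did not overlap, and the fall was 4.02-fold (log2 −2.01 ± 0.21 SE, adjusted p = 0.000102). *TPR2* (chromosome 3, 5731519 to 5737854, outside the stretch) had 64.5, 73.3 and 55.2 CPM in Col-0 against 14.7, 11.6 and 11.9 CPM in the line. It fell 5.05-fold (log2 −2.34 ± 0.16 SE, adjusted p = 3.64e-06), again without overlap. *TPR3* (chromosome 5, 9508718 to 9515565) changed most of the 3, from 30.8, 28.7 and 30.8 CPM to 4.67, 2.90 and 3.91 CPM, a 7.87-fold fall (log2 −2.98 ± 0.17 SE, adjusted p = 6.68e-07). The 3 falls held in every leave-one-out fit and under every scaling tried. *TPR4* had 89.4, 82.0 and 78.6 CPM in Col-0 against 107, 105 and 107 CPM in the line (log2 0.35 ± 0.10 SE, adjusted p = 0.0338). Its libraries did not overlap, but the call was lost when any one library other than Col-0 replicate 1 was left out (adjusted p = 0.0689 to 0.0975).

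With *EDS1* intact, the same transgene went along with mean levels of 58.4 CPM for *TPL*, 27.8 CPM for *TPR2* and 3.75 CPM for *TPR3*. TPR1-GFP *eds1-2* lay below TPR1-GFP for *TPL* (log2 −1.2, adjusted p = 0.000544) and for *TPR2* (log2 −1.13, adjusted p = 0.000128). For *TPR3* the same difference was 0.02 on the log2 scale (adjusted p = 0.919). Of 5 genes for partners of the family, 0 were called by edgeR with TMM scaling or by limma voom, 1 had an unadjusted p under 0.05 and DESeq2 called 1. That gene was *NINJA* (48.1, 54.2 and 46.2 CPM in the wild type, 56.5, 62.4 and 58.2 CPM in the line, log2 0.25 ± 0.08 SE, adjusted p = 0.0565). EdgeR called *NINJA* higher with RLE, upper-quartile or library-total scaling (adjusted p = 0.0404, 0.0206 and 0.0213), with a minimum mean of 1 CPM (0.0477) and without Col-0 replicate 2 (0.0343). *HDA19*, a histone deacetylase that works with the family, had a log2 ratio of −0.10 ± 0.08 SE (adjusted p = 0.436). The ion channel genes *DND1* and *DND2*, reported as targets that TPR1 represses, had log2 ratios of 0.18 ± 0.11 and 0.08 ± 0.13 SE (adjusted p = 0.269 and 0.701). Neither was called by edgeR, DESeq2 or limma voom, and neither had an unadjusted p under 0.05.

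**Figure D1:**
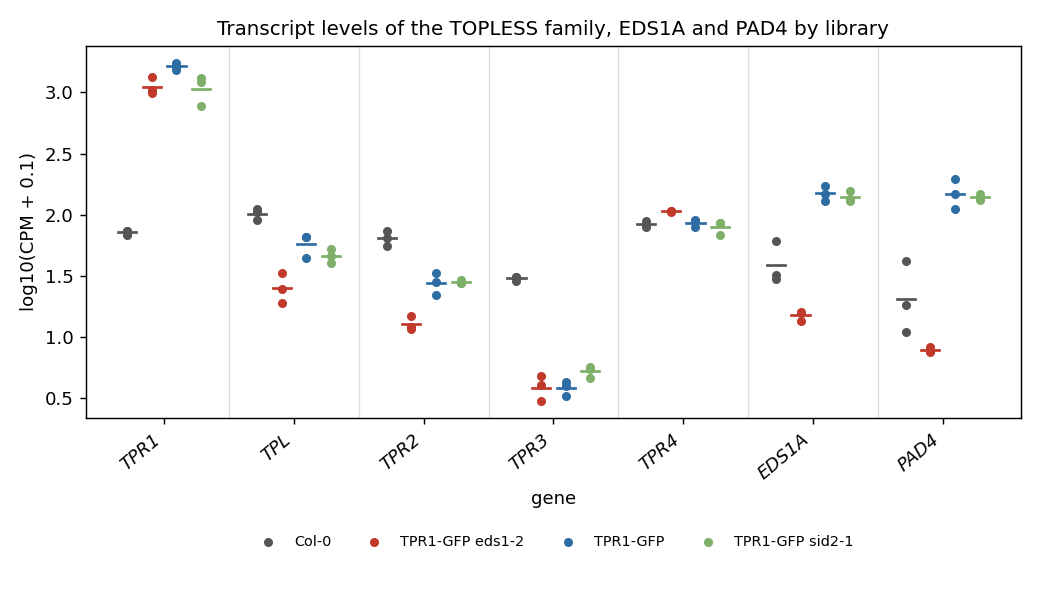
Levels of the 5 TOPLESS family genes, *EDS1A* and *PAD4* as log10(CPM + 0.1) in each of the 12 libraries, coloured by genotype; points are libraries and bars the mean of the 3 log values. *TPR1* is high in all 3 transgenic genotypes, *TPL*, *TPR2* and *TPR3* are low in TPR1-GFP *eds1-2*, and *EDS1A* is at 13.5 to 16 CPM there against 29.6 to 60.8 CPM in Col-0.

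*EDS1A* (AT3G48090, chromosome 3, 17755329 to 17758147, within the stretch) had 60.8, 32 and 29.6 CPM in Col-0 against 13.5, 16 and 15.7 CPM in TPR1-GFP *eds1-2*. The groups were apart, with a 2.71-fold fall (log2 −1.44 ± 0.24 SE, adjusted p = 0.00213), so reads still mapped to the gene in the mutant. Its near-identical neighbour AT3G48080, with which it can exchange reads, had overlapping groups of 16.2, 6.76 and 4.08 CPM and 3.56, 3.70 and 5.72 CPM (log2 −1.05 ± 0.41 SE, adjusted p = 0.106). It was called lower without Col-0 replicate 3 (log2 −1.40, adjusted p = 0.01995) and by DESeq2 (adjusted p = 0.0431). *PAD4*, the partner of EDS1 in basal immunity, also lies in the stretch and had 41.6, 18.1 and 11 CPM in Col-0 against 7.51, 8.20 and 7.48 CPM in the line. Its fall (log2 −1.60 ± 0.39 SE, adjusted p = 0.0176) lost its call when any one library of the line was left out (adjusted p = 0.0508 to 0.0598) and with limma voom (adjusted p = 0.0539). *SAG101*, the partner of EDS1 in cell death signalling, had 22.2, 20.0 and 13.3 CPM against 19.0, 25.7 and 20.6 CPM, with overlapping groups (log2 0.24 ± 0.18 SE, adjusted p = 0.374). Of the 7 tested EDS1 family and helper receptor genes outside the stretch 1 rose, where 9.4% of all genes did. That gene was AT5G66910, annotated as a CC-NBS-LRR receptor (log2 0.52 ± 0.14 SE, adjusted p = 0.0262). That call was lost without Col-0 replicate 2 or 3 or replicate 2 or 3 of the line (adjusted p up to 0.089). The lowest log2 ratio of the list, −4.46, belonged to another gene outside the stretch, which edgeR did not call. In the lower direction 1 of the 7 had an unadjusted p under 0.05, edgeR and limma voom called 0 and DESeq2 called 1.

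In SA synthesis and signalling the direction differed from gene to gene, and several members with large ratios were not called. *ICS1*, whose enzyme makes most pathogen-induced SA, had 49.9, 26.6 and 10.3 CPM in Col-0 against 30.03, 25.9 and 23.3 CPM in TPR1-GFP *eds1-2*. The line lay inside the Col-0 range (log2 −0.13 ± 0.41 SE, adjusted p = 0.857), and TPR1-GFP had a mean of 281 CPM. Of 8 synthesis and activator genes 1 rose and 1 fell, beside 9.4% and 7.49% of all genes, with a median log2 ratio of −0.34. *EPS1*, an acyltransferase gene of SA synthesis, rose from 1.80, 1.04 and 1.25 CPM to 2.98, 4.54 and 3.05 CPM (log2 1.37 ± 0.27 SE, adjusted p = 0.00508). *CBP60G*, which encodes an activator of *ICS1*, fell from 31.5, 24.4 and 16 CPM to 10.6, 14.7 and 10.9 CPM (log2 −0.99 ± 0.27 SE, adjusted p = 0.0258). The *CBP60G* call was lost without Col-0 replicate 1 or 2 or replicate 1 or 3 of the line (adjusted p up to 0.088). In the list 2 rose without Col-0 replicate 1 and 2 fell without Col-0 replicate 3.

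Among 23 SA response genes 5 rose and 3 fell, beside 9.4% and 7.49% of all genes, with a median of 0.11, and without Col-0 replicate 3 the counts were 3 and 6. Without replicate 1 or replicate 3 of the line 3 or 2 rose. *PR1*, the classical SA marker, was at 49.2, 14.3 and 1.58 CPM in Col-0 and at 4.62, 3.16 and 0.953 CPM in the line. Its groups overlapped through Col-0 replicate 3 (log2 −2.89 ± 0.94 SE, adjusted p = 0.055), and without that library the adjusted p was 0.00626. *PR2*, a glucanase gene, had a log2 ratio of −1.87 ± 0.73 SE (adjusted p = 0.104, or 0.0161 without Col-0 replicate 3), and *PR5* one of −0.55 ± 0.26 SE (adjusted p = 0.17). In TPR1-GFP the means of these genes were 1740, 2893 and 2743 CPM.

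The called SA response genes included regulators. *WRKY54*, a negative regulator of SA synthesis, rose from 29.7, 18.8 and 15.5 CPM to 55.2, 55.0 and 63.7 CPM, with no overlap (log2 1.45 ± 0.25 SE, adjusted p = 0.00244). *WRKY62* was at 0.30, 0.0497 and 0 CPM in Col-0 and at 1.73, 1.65 and 1.43 CPM in the line (log2 3.81 ± 0.63 SE, adjusted p = 0.00194). *WRKY53* and *WRKY40* went the other way. *WRKY40*, a repressor of basal defence genes, fell from 7.90, 9.94 and 8.73 CPM to 0.385, 0.713 and 1.72 CPM, or 9.44-fold (log2 −3.24 ± 0.36 SE, adjusted p = 0.000166). *WRKY53*, a senescence regulator, fell from 16.5, 10.2 and 13.3 CPM to 4.19, 4.19 and 6.48 CPM (log2 −1.43 ± 0.27 SE, adjusted p = 0.00433). Of 4 genes of the N-hydroxypipecolic acid pathway, which makes a mobile immune signal, edgeR, DESeq2 and limma voom called 0, and 0 had an unadjusted p under 0.05. *FMO1*, the last enzyme of that pathway, was at 0.450, 0.0497 and 0.0808 CPM in Col-0 and at 0.144, 0.0891 and 0 CPM in the line, and its mean in TPR1-GFP was 15.6 CPM.

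Cysteine-rich receptor-like kinases (CRKs), membrane kinases linked to pathogen and oxidative signals, were called in 9 of 21 cases outside the stretch, each time lower, where 7.49% of all genes fell. The median log2 ratio of the list was −1.03. In 3 of the 21 all libraries of the line lay above all Col-0 libraries, where 15.6% of all genes did. Leaving out single libraries gave 7 to 12 falls, and limma voom gave 6. Without Col-0 replicate 1 or with library-total scaling 1 gene was called higher. *CRK6* was at 76.1, 25.4 and 21.2 CPM in Col-0 and at 9.34, 6.32 and 11 CPM in the line. It fell 4.6-fold without overlap (log2 −2.2 ± 0.44 SE, adjusted p = 0.00592). *CRK40* fell from 129.9, 98.8 and 85.4 CPM to 57.0, 43.7 and 53.3 CPM (log2 −1.03 ± 0.17 SE, adjusted p = 0.00167). *CRK38* had no count in the line and 1.80, 0.547 and 0.445 CPM in Col-0, at least 19.1-fold lower over the group on a floor of 3 counts, and the list's median is the same with it at that bound. *CRK4*, within the stretch, stood at 157, 67.9 and 11 CPM in Col-0 and at 0.241, 0.178 and 0.191 CPM in the line, a 387-fold difference (log2 −8.56 ± 1.02 SE, adjusted p = 0.000309) that limma voom did not call (adjusted p = 0.0903). In each of these kinases Col-0 replicate 1 was the highest library.

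Of 12 sensor immune receptor genes outside the stretch 2 rose, where 9.4% of all genes did, *RPS2* (log2 0.52 ± 0.15 SE, adjusted p = 0.0335) and *RPM1* (log2 0.35 ± 0.11 SE, adjusted p = 0.0493), which guard the same host protein. Neither was called without Col-0 replicate 2 or 3 or replicate 2 or 3 of the line (adjusted p up to 0.119 and 0.164), *RPM1* was also lost without replicate 1 of the line and with limma voom (0.0656 and 0.0543), and the median of the list was 0.18. Of 18 pattern-triggered genes 4 rose and 2 fell, against 9.4% and 7.49% of all genes, with a median of 0.02. *PROPEP1*, the precursor of a danger peptide, rose from 1.05, 0.795 and 0.647 CPM to 3.42, 4.50 and 3.48 CPM (log2 2.2 ± 0.26 SE, adjusted p = 0.000241). Its receptor gene *PEPR2* rose as well (log2 1.57 ± 0.24 SE, adjusted p = 0.00128), from 0.845 to 1.60 CPM in Col-0 to 3.51 to 4.24 CPM. *WRKY29*, a target of pattern-activated kinases, rose from 1.4, 0.199 and 0.404 CPM to 4.91, 7.17 and 4.77 CPM (log2 3.09 ± 0.50 SE, adjusted p = 0.0018). *WRKY22*, another gene of the list, fell instead (log2 −1.84 to −1.20 when single libraries were left out, adjusted p up to 0.0467). The *WRKY22* call was lost when only the 6 libraries compared were fitted (adjusted p = 0.075). *WRKY33*, which drives camalexin synthesis, fell from 52.5, 61.5 and 57.6 CPM to 22.4, 29.5 and 29 CPM, with the groups well apart (log2 −1.08 ± 0.16 SE, adjusted p = 0.00112).

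Of 15 genes for camalexin, an indole phytoalexin, and for indole glucosinolates 6 fell and 3 rose, with a median of −0.20, while 7.49% of all genes fell and 9.4% rose. *CYP81F2*, which modifies indole glucosinolates, fell from 8.45, 6.71 and 13.5 CPM to 1.54, 1.92 and 2.81 CPM (log2 −2.2 ± 0.31 SE, adjusted p = 0.000711). *MYB51*, a regulator of the pathway, fell from 19.1, 14.3 and 12.9 CPM to 6.93, 7.57 and 6.15 CPM (log2 −1.16 ± 0.18 SE, adjusted p = 0.00151). The 3 that rose were *CYP79B2*, *MYB34* and *SUR1*, by 0.54 to 0.97 log2 units. The counts of the list were unstable: without Col-0 replicate 2 or without replicate 2 of the line 0 rose, without Col-0 replicate 3 or replicate 3 of the line 1 rose, and 3 to 4 fell without any one library other than Col-0 replicate 2, when 7 fell.

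Of the 12 largest rises outside the stretch, among genes without overlap between groups and with a mean of at least 5 CPM in the higher group, 6 were genes of the anthocyanin list. Anthocyanins are red to purple pigments built from phenylalanine through chalcone synthase (CHS), CHI and F3H, then through DFR, LDOX and sugar- and acyl-transferases, and the late steps are switched on by complexes of an MYB factor such as PAP1 with the bHLH factor TT8. Of 14 tested genes outside the stretch 10 rose, where 9.4% of all genes did. None was called lower by edgeR, DESeq2 or limma voom, and 0 had an unadjusted p under 0.05 in that direction. The median log2 ratio was 3.91, and 11 of the 14 had all 3 libraries of the line above all 3 of Col-0, where 15.6% of all genes did. The summed level of the list was 172 to 256 CPM in Col-0 against 574 to 623 CPM in the line. Leaving out single libraries gave 10 or 11 rises.

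Genes of late steps were near 0 in Col-0. *DFR*, which reduces dihydroflavonols and commits the pathway to anthocyanins, had 0.10, 0.398 and 0.202 CPM in Col-0 against 83.6, 61.5 and 83.1 CPM in TPR1-GFP *eds1-2*. Every library of the line was far above every Col-0 library, 326-fold on average (log2 8.33 ± 0.45 SE, adjusted p = 8.25e-07). *UF3GT*, a glycosyltransferase of the pathway, was at 0.10, 0.0994 and 0.121 CPM in Col-0 and at 42.7, 23.6 and 41.6 CPM in the line, a 337-fold rise (log2 8.31 ± 0.42 SE, adjusted p = 3.34e-07). *TT19*, a glutathione transferase that carries anthocyanins to the vacuole, rose 197-fold from 0.150, 0.298 and 0.242 CPM to 41.0, 42.7 and 52.5 CPM (log2 7.59 ± 0.27 SE, adjusted p = 6.09e-09). The pattern was alike for *LDOX*, the dioxygenase that follows DFR, at 0.050, 0.447 and 0.404 CPM in Col-0 against 52.2, 44.3 and 56.2 CPM in the line (log2 7.35 ± 0.38 SE, adjusted p = 4.51e-07). *AT5MAT*, an anthocyanin malonyltransferase gene, rose 139-fold, and AT4G14090, a UDP-glycosyltransferase gene of the list, 45.4-fold (adjusted p = 9.5e-06 and 1.3e-06). AT1G03940, an acyltransferase gene that is not on the list, went from 0 to 0.0994 CPM in Col-0 to 5.24 to 5.92 CPM in the line, 91.9-fold (adjusted p = 1.78e-05).

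The upstream region of the 4 late genes with the largest rises is shown for its sequence, since the MYB and bHLH factors of the pathway act through promoters. Each line gives the 250 bases before the annotated start of the gene, 5′ to 3′ on the strand of the gene, from the RefSeq genome TAIR10.1; capitals mark CACGTG, the G-box of bHLH and bZIP factors, and ACCNAC, a motif of MYB factors, both searched on both strands (an ACCNAC on the other strand reads GTNGGT). *DFR* is chr5:17166033-17166282 on the minus strand, *UF3GT* is chr5:21938397-21938646 on the minus strand, *TT19* is chr5:5658166-5658415 on the plus strand and *LDOX* is chr4:12006210-12006459 on the minus strand.
DFR: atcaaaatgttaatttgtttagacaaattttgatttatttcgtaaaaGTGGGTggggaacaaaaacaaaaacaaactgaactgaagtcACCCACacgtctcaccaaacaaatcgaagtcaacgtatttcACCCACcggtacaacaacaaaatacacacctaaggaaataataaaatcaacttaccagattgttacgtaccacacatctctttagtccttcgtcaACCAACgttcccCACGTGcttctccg
UF3GT: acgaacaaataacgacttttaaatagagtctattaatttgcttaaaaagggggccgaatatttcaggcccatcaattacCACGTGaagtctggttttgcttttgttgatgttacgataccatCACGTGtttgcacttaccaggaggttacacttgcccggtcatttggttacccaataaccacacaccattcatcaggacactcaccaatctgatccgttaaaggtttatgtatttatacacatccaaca
TT19: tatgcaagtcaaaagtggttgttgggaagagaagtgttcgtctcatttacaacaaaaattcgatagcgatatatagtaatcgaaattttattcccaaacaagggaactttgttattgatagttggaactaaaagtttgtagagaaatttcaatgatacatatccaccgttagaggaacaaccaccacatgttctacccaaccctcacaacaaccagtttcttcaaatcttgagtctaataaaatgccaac
LDOX: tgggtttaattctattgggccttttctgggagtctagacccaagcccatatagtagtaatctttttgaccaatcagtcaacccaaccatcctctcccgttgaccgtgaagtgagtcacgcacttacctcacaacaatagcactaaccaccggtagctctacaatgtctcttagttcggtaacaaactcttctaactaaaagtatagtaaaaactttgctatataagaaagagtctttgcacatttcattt

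The *DFR* window held 1 CACGTG and 4 ACCNAC matches, the *UF3GT* window 2 CACGTG and no ACCNAC match, and the *TT19* and *LDOX* windows held neither. Of the 11 anthocyanin genes that rose, *F3H* of the stretch included, 3 had CACGTG (27.3%) and 5 had ACCNAC (45.5%). Among 18769 promoters of tested genes the shares were 7.33% and 24.3%. The W-box letters TTGACC or TTGACT occurred in 4 of the 11 (36.4%) against 28.1%, the cold motif CCGAC in 1 (9.09%) against 13.1% and the evening element AAAATATCT in 0 against 2.55%. The motif ACCNAC was searched after the rises were known, and matches are a description of letters, not of binding.

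The regulator *PAP1* and the early steps moved less than the late genes. *PAP1*, the MYB activator, rose 5.58-fold from 2.45, 2.14 and 5.90 CPM to 16, 22.6 and 19.8 CPM (log2 2.46 ± 0.33 SE, adjusted p = 0.000583). *TT8* had 3 counts in all of Col-0 and 1.59, 2.32 and 2.38 CPM in the line, a ratio of 45.5 (95% interval 15.2 to 223, counting error only, adjusted p = 0.000642). *F3H*, within the stretch, rose from 5.60, 5.86 and 8.53 CPM to 19.5, 23.2 and 24.9 CPM (log2 1.75 ± 0.16 SE, adjusted p = 3.48e-05), and *CHI* and *F3PRIMEH*, a B-ring hydroxylase gene, rose by 1.08 and 1.49 log2 units (adjusted p = 0.0103 and 0.00528). *CHS* was at 38.8, 24.4 and 87.8 CPM in Col-0 and at 145 CPM in every library of the line. Although its groups did not overlap, it was not called (log2 1.52 ± 0.49 SE, adjusted p = 0.0545); without Col-0 replicate 3, the highest of its group, the adjusted p was 0.0125. *MYB4*, a repressor of phenylpropanoid genes that is not on the list, fell 9.75-fold from 6.45, 5.76 and 7.27 CPM to 0.481, 0.802 and 0.715 CPM (log2 −3.27 ± 0.29 SE, adjusted p = 3.18e-05).

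The other transgenic genotypes did not show these levels. TPR1-GFP had means of 0.310 CPM for *DFR*, 0.188 CPM for *LDOX*, 3.09 CPM for *CHS* and 2.16 CPM for *PAP1*, and the *sid2-1* line 0.257, 0.122, 5.01 and 1.2 CPM. In the direct test of TPR1-GFP *eds1-2* against TPR1-GFP 13 of the 14 list genes were higher, where 25.2% of all genes were. *MYB4* had a mean of 1.29 CPM in TPR1-GFP.

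**Figure D2:**
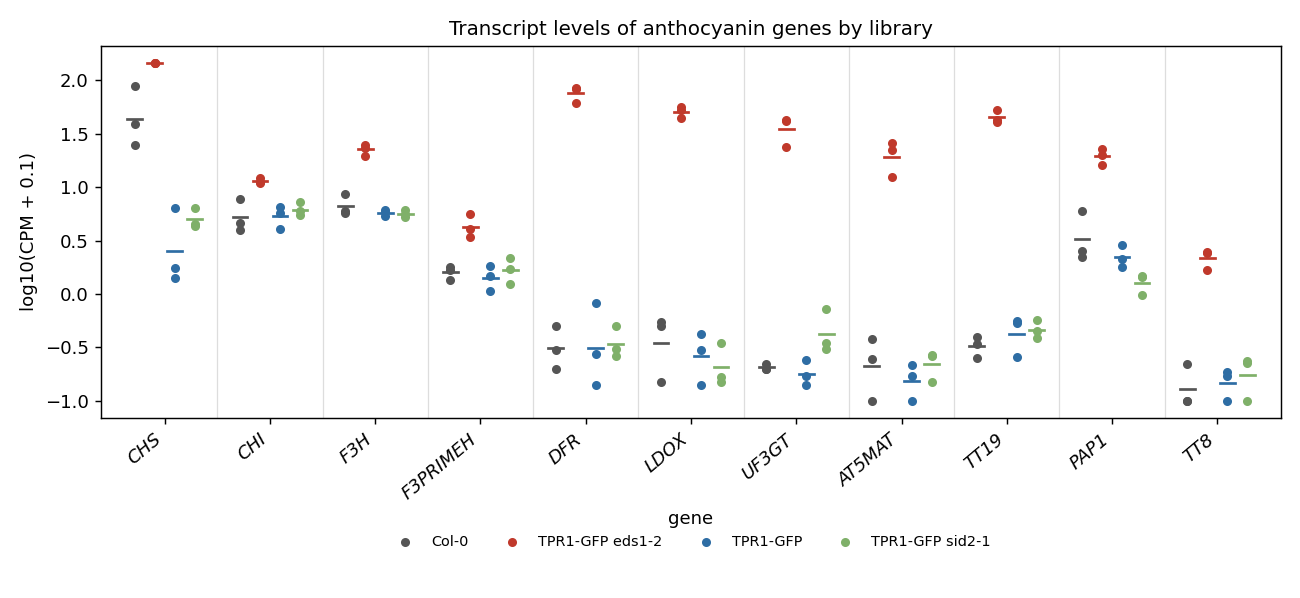
Levels of 11 anthocyanin genes as log10(CPM + 0.1) in each of the 12 libraries, coloured by genotype; points are libraries and bars the mean of the 3 log values. *DFR*, *LDOX*, *UF3GT*, *AT5MAT* and *TT19* sit at 12.2 to 83.6 CPM in TPR1-GFP *eds1-2* and at or under 0.447 CPM in Col-0.

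Jasmonate genes rose in part. Jasmonates are lipid-derived wound hormones whose responses are held back by JAZ proteins, NINJA and TOPLESS corepressors until JAZ proteins are degraded and MYC factors act. Of 22 tested genes of the MYC branch 9 rose and edgeR called none lower, against 9.4% of all genes that rose; 1 had an unadjusted p under 0.05 in the lower direction, and DESeq2 and limma voom called 0 there. The median was 0.46. *VSP2*, a vegetative storage protein gene used as a marker of the branch, had 4.70, 5.81 and 37.0 CPM in Col-0 against 496, 369 and 479 CPM in the line. Even the highest Col-0 library, replicate 3, was far below the line, and the rise was 28.3-fold (log2 4.81 ± 0.68 SE, adjusted p = 0.00089). *VSP1* rose 11.4-fold from 1.4, 3.68 and 8.81 CPM to 48.6, 32.2 and 78.1 CPM (log2 3.48 ± 0.58 SE, adjusted p = 0.00226). *CLH1*, a coronatine- and jasmonate-induced chlorophyllase gene, rose from 131, 192 and 219 CPM to 319, 412 and 439 CPM (log2 1.11 ± 0.18 SE, adjusted p = 0.00201). *JMT*, which methylates jasmonic acid, rose by 2.32 log2 units (adjusted p = 0.00522), and the *JAZ* genes that rose were *JAZ3*, *JAZ5*, *JAZ9* and *JAZ12*, by 0.46 to 1.24, of which *JAZ5* was not called without replicate 2 or 3 of the line (adjusted p up to 0.0927). Not every target followed, since *TAT3* had a log2 ratio of −1.27 ± 0.60 SE and *JAZ10* one of −0.28 ± 0.36 SE (adjusted p = 0.168 and 0.628). The lowest log2 ratio of the list, that of another gene, was −1.74, and without Col-0 replicate 1 edgeR called 1 gene lower. In TPR1-GFP *VSP2* had a mean of 7.46 CPM. Over the 22 genes, however, the median log2 ratio to Col-0 was 0.34 in TPR1-GFP and 0.61 in the *sid2-1* line. In the direct test of TPR1-GFP *eds1-2* against TPR1-GFP 6 of the 22 were higher and 7 lower, where 25.2% and 27.3% of all genes were.

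Of 12 jasmonate synthesis genes outside the stretch 5 rose and 1 fell, against 9.4% and 7.49% of all genes, with a median of 0.18, and 3 rose without Col-0 replicate 1 or 2 or without replicate 2 or 3 of the line. The fall, that of the cyclase gene *AOC3* (log2 −0.65, adjusted p = 0.0469), lost its call without any one library other than replicate 2 of the line (adjusted p up to 0.138), under RLE, upper-quartile and library-total scaling (0.0557 to 0.0887) and with limma voom (0.104). *OPR3*, the reductase of the peroxisomal step, rose from 38.1, 36.5 and 41.8 CPM to 80.6, 124 and 100.2 CPM (log2 1.39 ± 0.15 SE, adjusted p = 9.94e-05). *LOX3*, a lipoxygenase gene of the plastid step, rose from 18.0, 15.1 and 20.0 CPM to 33.9, 48.9 and 46.3 CPM (log2 1.28 ± 0.16 SE, adjusted p = 0.00029). The groups of both genes were well apart. Of 9 genes of the ERF branch, in which ethylene and jasmonate act together, 1 rose and 1 fell, where 9.4% and 7.49% of all genes did (median 0.41). The rise of the defensin gene *PDF1.3*, which can exchange reads with near-identical copies (log2 1.78, adjusted p = 0.0453) was called in 1 of 6 fits that left out a library, that without Col-0 replicate 1 (adjusted p up to 0.157 in the others), and not with limma voom (0.131). *EIN3*, a transcription factor gene of ethylene signalling (log2 −0.40, adjusted p = 0.0471), was called in 1 of the 6 as well, that without Col-0 replicate 3 (up to 0.171 in the others), and not under RLE, upper-quartile or library-total scaling (0.0582 to 0.126). Leaving out single libraries gave 0 to 2 rises and 0 to 1 falls in the branch.

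Aliphatic glucosinolates are methionine-derived defence compounds against chewing insects. Of 16 tested genes outside the stretch 8 rose and 1 fell, with a median of 0.89, where 9.4% and 7.49% of all genes did, and in 14 of the 16 every library of the line was above every Col-0 library, where 15.6% of all genes were. *MYB28*, the main activator of the pathway, rose from 70.7, 34.3 and 47.1 CPM to 117, 164 and 134 CPM (log2 1.44 ± 0.27 SE, adjusted p = 0.00402). *BCAT4*, the aminotransferase of the entry step, rose from 95.2, 24.9 and 54.3 CPM to 184, 241 and 176 CPM (log2 1.79 ± 0.38 SE, adjusted p = 0.00916). *GTR1*, a glucosinolate transporter gene within the stretch, rose from 50.1, 45.4 and 47.1 CPM to 70.7, 75.8 and 72.0 CPM (log2 0.62 ± 0.09 SE, adjusted p = 0.000795). Col-0 replicate 1 was the highest Col-0 library for these 3 genes, and 13 of the 16 list genes rose without it, against 5 without replicate 2 or replicate 3 of the line. The fall, that of the chain-elongation gene *MAM3* (log2 −3.73, adjusted p = 0.0241), lost its call without any one library other than Col-0 replicate 3 (adjusted p up to 0.0734) and with limma voom (0.127).

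**Figure D3:**
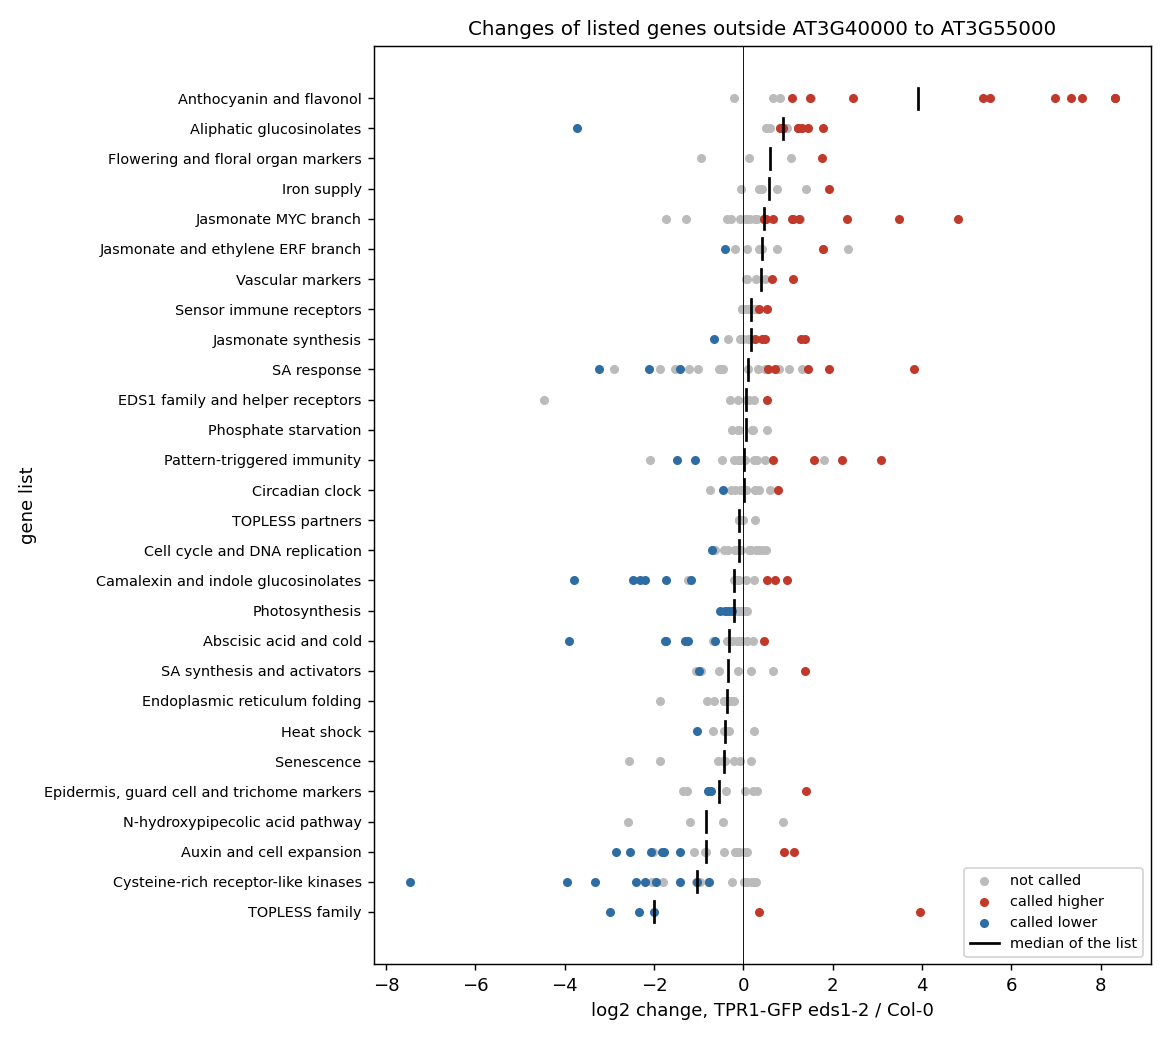
Log2 ratios of TPR1-GFP *eds1-2* to Col-0 for the tested members, outside the stretch, of the gene lists; points are genes, coloured where called, and black bars are list medians, ordered from highest to lowest. The 3 lists drawn up after values were seen and lists with under 4 tested genes are not drawn. The lists drawn were themselves chosen with earlier results of these data known. Of the lists drawn, anthocyanin has the highest median, 3.91, aliphatic glucosinolates follow at 0.89, and the cysteine-rich kinases and the TOPLESS family have the lowest, −1.03 and −2.01.

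Genes of rapid responses to touch and wounding were lower in TPR1-GFP *eds1-2*. The list of 14 was drawn up after falls of its members had been seen, so its count describes those genes only. Of the 14, 13 fell, where 7.49% of all genes did. All 14 had the line below Col-0 in every library, where 18.7% of all genes did. The median was −1.78, and 11 to 14 fell when single libraries were left out. *TCH4*, a touch-induced cell wall enzyme gene, fell 13.6-fold from 21.6, 76.6 and 40.05 CPM to 3.75, 3.25 and 3.19 CPM (log2 −3.76 ± 0.41 SE, adjusted p = 0.000158). *TCH3*, a calmodulin-like gene, fell from 205, 166 and 149 CPM to 39.5, 39.1 and 56.6 CPM (log2 −1.94 ± 0.19 SE, adjusted p = 5.6e-05). Neither gene's groups came near each other. *STZ*, a zinc finger repressor gene of stress responses, fell from 10.05, 17.7 and 13.4 CPM to 1.11, 2.36 and 2.1 CPM (log2 −2.88 ± 0.30 SE, adjusted p = 0.000105). *ERF104*, an ethylene response factor gene, was at 16.1, 35.2 and 31.4 CPM in Col-0 and at 3.03, 3.07 and 2.96 CPM in the line, or 9.13-fold lower (log2 −3.19 ± 0.28 SE, adjusted p = 3.27e-05). *DIC2*, a mitochondrial dicarboxylate carrier gene, fell by 3.08 on the log2 scale (adjusted p = 0.000538). Mean levels in TPR1-GFP were 483 CPM for *TCH3* and 21.7 CPM for *TCH4*. Among the 13 promoters of genes that fell, 6 held TTGACC or TTGACT (46.2%), against 28.1% of all. ACCNAC occurred in 4 (30.8%) against 24.3% and CCGAC in 2 (15.4%) against 13.1%. AAAATATCT occurred in 1 (7.69%) against 2.55% and CACGTG in 0 against 7.33%. These shares describe letters in a list drawn up after its falls were seen, and binding was not tested.

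Of 16 abscisic acid and cold genes outside the stretch 6 fell, where 7.49% of all genes did, and 1 rose, where 9.4% did, with a median of −0.31. *CBF1*, a factor that switches on cold genes through CCGAC motifs, fell 15.4-fold from 2.80, 8.30 and 3.84 CPM to 0.241, 0.445 and 0.286 CPM (log2 −3.91 ± 0.48 SE, adjusted p = 0.000293). *CBF2* fell from 6.30, 10.9 and 5.41 CPM to 1.49, 3.25 and 1.91 CPM (log2 −1.76 ± 0.38 SE, adjusted p = 0.00927). *COR413PM1*, a cold-induced membrane protein gene, fell from 628, 857 and 685 CPM to 445, 499 and 450 CPM, without overlap (log2 −0.64 ± 0.12 SE, adjusted p = 0.00363). The dehydrin gene *LTI30*, within the stretch, fell as well (log2 −1.93 ± 0.22 SE, adjusted p = 0.00018). Falls numbered 3 without Col-0 replicate 2 and 4 without replicate 3 of the line, and the rise was lost without Col-0 replicate 2 or replicate 2 or 3 of the line. Of the 7 list genes that fell, *LTI30* included, 4 had CCGAC in the promoter window (57.1%), against 13.1% of all. ACCNAC also occurred in 4 (57.1%), against 24.3%. CACGTG and the W-box letters each occurred in 1 (14.3%), against 7.33% and 28.1%. The list was chosen for cold genes, so a raised share of CCGAC can come with that choice. Shares for members that did not fall were not computed, and binding was not tested.

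Of 19 auxin and cell expansion genes outside the stretch 6 fell and 2 rose, beside 7.49% and 9.4% of all genes, with a median of −0.84. *IAA2*, an Aux/IAA repressor gene that auxin induces, fell from 59.8, 119 and 76.4 CPM to 34.7, 30.4 and 29.9 CPM (log2 −1.42 ± 0.21 SE, adjusted p = 0.00102). *IAA29*, another member of that family, fell 7.16-fold from 22.9, 77.6 and 30.2 CPM to 7.85, 1.92 and 8.48 CPM (log2 −2.84 ± 0.54 SE, adjusted p = 0.0049). *EXPA4*, an expansin gene that loosens cell walls, rose from 23.1, 14.8 and 22.8 CPM to 41.4, 52.0 and 40.2 CPM (log2 1.14 ± 0.22 SE, adjusted p = 0.00441). Falls numbered 3 without Col-0 replicate 2 and 4 without replicate 2 or replicate 3 of the line, and 1 gene rose without any one library other than Col-0 replicate 1. For *IAA2*, *IAA29*, *TCH4* and *CBF1* alike, Col-0 replicate 2 was the highest library.

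Of 7 brassinosteroid synthesis and inactivation genes outside the stretch, again a list drawn up after values were seen, 4 fell and 1 rose (2 fell without Col-0 replicate 2). Of all genes 7.49% fell and 9.4% rose, and the count describes the listed genes only. *CYP85A2*, which makes brassinolide, the most active brassinosteroid, fell 5.00-fold from 35.7, 36.8 and 29 CPM to 7.41, 5.97 and 6.91 CPM (log2 −2.32 ± 0.13 SE, adjusted p = 8.25e-07). Its locus code, AT3G30180, comes before those of the stretch. *BAS1*, which inactivates brassinosteroids, fell 7.37-fold from 12.7, 16.9 and 10.2 CPM to 2.36, 1.51 and 1.53 CPM (log2 −2.88 ± 0.30 SE, adjusted p = 9.02e-05). A synthesis and an inactivation gene thus both fell. TPR1-GFP had means of 8.55 and 3.36 CPM for these genes.

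**Figure D4:**
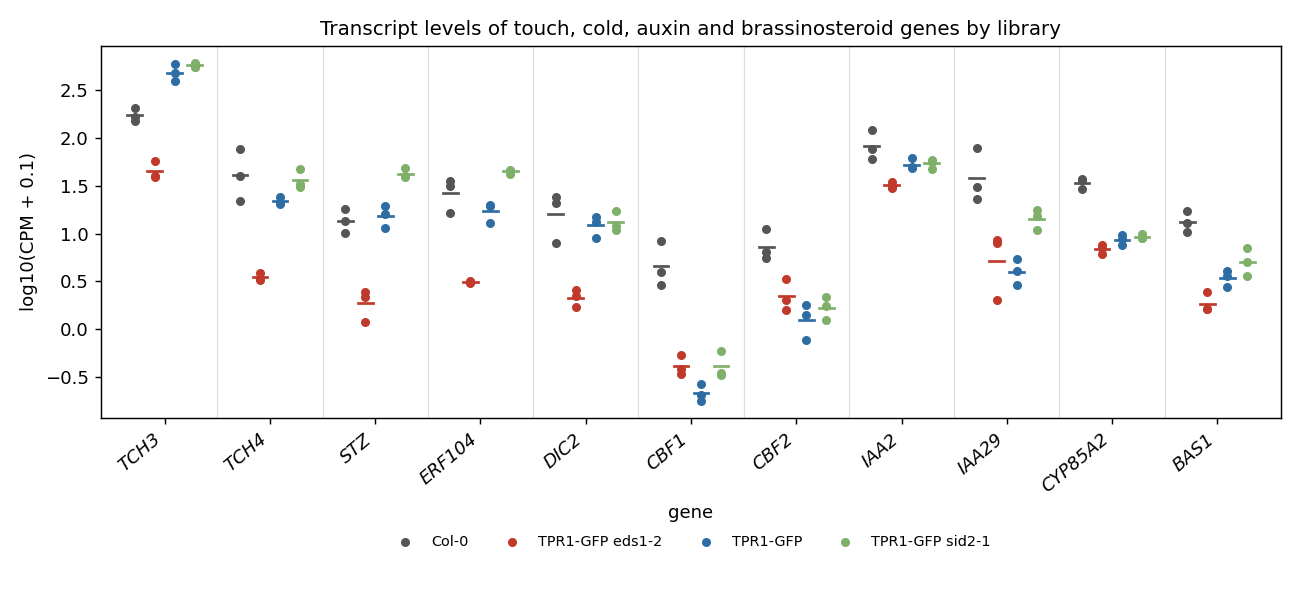
Levels of 11 touch, cold, auxin and brassinosteroid genes as log10(CPM + 0.1) in each of the 12 libraries, coloured by genotype; points are libraries and bars the mean of the 3 log values. In each gene the 3 TPR1-GFP *eds1-2* libraries lie below the 3 Col-0 libraries, for *TCH4* at 3.19 to 3.75 CPM against 21.6 to 76.6 CPM.

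Genes of photosynthesis and growth had small ratios. Of 25 photosynthesis genes outside the stretch 4 fell, where 7.49% of all genes did, and 13 had the line below Col-0 in every library, where 18.7% of all genes did. The median was −0.20 and the lowest ratio −0.52. *PSBQ2*, of photosystem II, fell from 4043, 4396 and 4184 CPM to 3152, 3323 and 3025 CPM (log2 −0.41 ± 0.10 SE, adjusted p = 0.0129), a call lost without replicate 3 of the line (adjusted p = 0.0556). *PSAD1*, of photosystem I, fell by 0.35 on the log2 scale (adjusted p = 0.0135), also lost without that library, and without it no list gene was called, against 2 without Col-0 replicate 3 or replicate 2 of the line. Of 16 cell cycle and DNA replication genes outside the stretch 1 fell, where 7.49% of all genes did. That gene was *PCNA2*, the sliding clamp of replication (log2 −0.70 ± 0.22 SE, adjusted p = 0.0462). It was not called without Col-0 replicate 2 or 3 or replicate 1 or 2 of the line (adjusted p up to 0.144), nor under RLE, upper-quartile or library-total scaling (0.0537 to 0.0861). In TPR1-GFP against Col-0, which shares the Col-0 libraries, 22 of the 25 photosynthesis genes and all 16 cell cycle genes were lower, where 26.3% of all genes were.

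Several lists gave no call. Of 13 genes for protein folding in the endoplasmic reticulum edgeR called 0, with 4 at an unadjusted p under 0.05, and limma voom called 0 and DESeq2 2 (median −0.38). For 8 senescence genes outside the stretch the counts were 0, 3, 0 and 3 in that order (median −0.44), and for 6 phosphate starvation genes they were 0, 0, 0 and 0 (median 0.05). Without Col-0 replicate 2 edgeR called 1 folding gene and 1 senescence gene lower, without Col-0 replicate 3 it called 1 folding gene lower and without Col-0 replicate 1 it called 2 senescence genes lower. Of 6 heat shock genes outside the stretch 1 fell, where 7.49% of all genes did. That gene was *HSFB2A* (log2 −1.03 ± 0.25 SE, adjusted p = 0.0158, up to 0.0629 without Col-0 replicate 2 or replicate 1 or 3 of the line). Among 16 clock genes outside the stretch 1 rose and 1 fell, beside 9.4% and 7.49% of all genes. *CCA1*, a morning factor, rose (20.2, 20.5 and 23.5 CPM to 30.4, 47.1 and 32.8 CPM, log2 0.78 ± 0.14 SE, adjusted p = 0.00332) and *PRR5* fell by 0.46 on the log2 scale (adjusted p = 0.0409). The *PRR5* call was lost without Col-0 replicate 1 or 2 or replicate 1 or 3 of the line (adjusted p up to 0.138) and under RLE, upper-quartile or library-total scaling (0.0518 to 0.103). Without Col-0 replicate 1 or replicate 1 of the line 3 clock genes rose.

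Iron supply had 1 rise among 6 tested genes outside the stretch, where 9.4% of all genes rose. There were 3 rises without Col-0 replicate 1 and by DESeq2, and 2 without Col-0 replicate 3 or replicate 2 of the line. The 1 gene called was *FER1*, which encodes an iron-storing ferritin, at 78.0, 119.6 and 172 CPM in Col-0 against 500.2, 349 and 554 CPM in the line (log2 1.93 ± 0.25 SE, adjusted p = 0.00042), with no overlap. *NRT2.1*, a high-affinity nitrate transporter gene, rose from 0.50, 0.149 and 0 CPM to 4.86, 11.3 and 9.77 CPM (log2 5.38 ± 0.89 SE, adjusted p = 0.00218). EdgeR called 1 of 6 genes for nitrate uptake and assimilation higher, *NRT2.1*, where 9.4% of all genes rose, in a list drawn up after this rise was seen. Without Col-0 replicate 2 a further 3 of the list were lower, and DESeq2 called 2 lower.

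Markers of cell types give the makeup of the samples as far as RNA shows it. Of 6 vascular markers outside the stretch 2 rose, where 9.4% of all genes did, and their part in the other rises was not tested. *SUC2*, the sucrose carrier of companion cells, rose from 279, 199.8 and 207 CPM to 353, 377 and 334 CPM (log2 0.63 ± 0.12 SE, adjusted p = 0.00472), and *APL*, a phloem identity gene, from 13.2, 8.25 and 9.62 CPM to 20.9, 24.8 and 20.8 CPM (log2 1.1 ± 0.15 SE, adjusted p = 0.000493). The 4 others had log2 ratios of 0.06 to 0.49 and were not called, and *SWEET11*, a sucrose exporter gene within the stretch, rose by 1.45 log2 units (adjusted p = 0.0194), a call lost without Col-0 replicate 2 or 3 or replicate 2 of the line (adjusted p up to 0.0796). The summed level of the 7 vascular markers was 258 to 369 CPM in Col-0 against 449 to 546 CPM in the line. Of 10 epidermis, guard cell and trichome markers 1 rose, *TRY*, and 2 fell, *KAT1* (lost without Col-0 replicate 2, adjusted p = 0.0735) and *FDH*, beside 9.4% and 7.49% of all genes. Their summed levels were 429 to 704 CPM in Col-0 and 295 to 492 CPM in the line. Without Col-0 replicate 1 there were 4 falls in place of 2, and without replicate 2 of the line 2 rises in place of 1. *FDH*, of cuticle wax synthesis, fell from 205, 277 and 275 CPM to 167, 119.9 and 149 CPM (log2 −0.80 ± 0.15 SE, adjusted p = 0.00343). Of 10 floral markers 4 were in the table and 1 rose, *AG*, where 9.4% of all genes did. It went from 0.950, 0.298 and 0.647 CPM to 2.26, 2.18 and 2.00 CPM (log2 1.76 ± 0.39 SE, adjusted p = 0.0095). The floral markers differed in direction, with a lowest log2 ratio of −0.94. Of the 4, 1 had an unadjusted p under 0.05 in the lower direction, and edgeR called 1 lower without replicate 1 of the line. None of 5 root markers had enough counts to be in the table.

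By size alone, the rises outside the stretch were led by a gene without counts in Col-0. AT5G20750, annotated as a transposable element gene, had 9.48, 7.84 and 7.67 CPM in TPR1-GFP *eds1-2* and no count in any of the 9 other libraries, at least 179.8-fold higher than Col-0. *CWINV5*, a cell wall invertase gene, had no count in Col-0 and 4.28, 6.95 and 4.62 CPM in the line, at least 115-fold higher. *BAM5*, a beta-amylase gene, rose 65.0-fold from 1.90, 1.69 and 3.11 CPM to 98.8, 199 and 137 CPM (log2 6.0 ± 0.45 SE, adjusted p = 1.27e-05). *MLP168*, of the MLP family, rose 57.4-fold to 14.0, 20.7 and 18.4 CPM (adjusted p = 8.25e-07). Among the smallest p-values was *UMAMIT42*, of a family of amino acid transporters, which rose 14.8-fold from 0.70, 0.547 and 0.647 CPM to 8.52, 10.7 and 8.82 CPM (log2 3.88 ± 0.18 SE, adjusted p = 1.38e-07). In TPR1-GFP *BAM5* and *MLP168* had means of 8.89 and 2.2 CPM, below those of TPR1-GFP *eds1-2* (log2 differences of 4.02 and 3.01, adjusted p = 1.84e-05 and 5.39e-06).

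Falls by size were led by *QQS*, an orphan gene that affects starch, and *MRD1*. *QQS* had 6.0, 4.67 and 8.24 CPM in Col-0 against 1 count in the line, a ratio of 414 (95% interval 73.9 to 16380, counting error only), while TPR1-GFP had a mean of 7.43 CPM. *QQS* (AT3G30720) has a locus code before those of the stretch. *MRD1* fell 229-fold from 27.5, 29.5 and 27.8 CPM to 0.0963, 0.178 and 0.0953 CPM (log2 −7.77 ± 0.26 SE, adjusted p = 4.33e-09). Its mean was 0.276 CPM in TPR1-GFP but 28.1 CPM in the *sid2-1* line. AT5G44260, a zinc finger gene, fell 22.9-fold (adjusted p = 0.00106), and *ATPMEPCRB*, a pectin methylesterase gene, 9.43-fold (adjusted p = 0.000137). The immune genes *AIG1*, induced by a bacterial effector, and *WAK3*, a wall-associated kinase gene, had 16.4, 5.07 and 1.25 CPM and 13.2, 2.68 and 1.33 CPM in Col-0, and at most 1.11 and 0.481 CPM in the line (log2 −3.80 ± 0.89 and −3.78 ± 0.91 SE, adjusted p = 0.0136 and 0.0157). Both calls were lost without replicate 2 or replicate 3 of the line (adjusted p = 0.0505 to 0.0717) and with limma voom (0.131 and 0.133), and Col-0 replicate 1 was again the highest. TPR1-GFP had means of 228 and 75.5 CPM for them.

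Within the stretch around *EDS1*, 93 of 838 genes rose (11.1%) and 163 fell (19.5%), so that 30.5% were called, and the median log2 ratio was −0.13. Genes that lost nearly all counts were found mainly there. Of the 838 genes 13 had at most 3 counts in the 3 libraries of the line and at least 1 CPM in Col-0, and 9 of these had at least 1 CPM in both other transgenic genotypes. Outside the stretch 3 of 18039 genes, AT1G44830, *QQS* and *XTH18*, had at most 3 counts in the line and at least 1 CPM in Col-0. The share of called genes ran along the stretch from 53.6% of 28 genes with codes of AT3G43000 to AT3G43999 to 12.5% of 80 genes at AT3G52000 to AT3G52999, with 25.9% of 81 at AT3G48000 to AT3G48999, where *EDS1A* lies. Of 14 tested genes at AT3G30000 to AT3G39999, before the stretch, 10 were called (71.4%), *CYP85A2* and *QQS* among them. Sequence linked to *eds1-2* and changes in the activity of these genes cannot be told apart from these counts.

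Most of the genes with the largest changes in the stretch were at or near 0 counts in one of the groups. AT3G44070, a glycosyl hydrolase gene of family 35, had no count in the 9 other libraries and 17.0, 16.5 and 16.6 CPM in TPR1-GFP *eds1-2*, at least 361-fold higher than Col-0. *FAR8*, a fatty acid reductase gene, had no count in Col-0 and 4.19, 4.14 and 9.68 CPM in the line, at least 129-fold higher. *PRXCA*, a peroxidase gene, rose 22.7-fold from 0.35, 0.348 and 1.21 CPM to 11.6, 15.1 and 16.7 CPM (log2 4.43 ± 0.36 SE, adjusted p = 1.59e-05). In the other direction, the transposable element gene AT3G43690 had 13.8, 14.4 and 18.9 CPM in Col-0 and no count in the line, at least 341-fold lower. *HSD2*, a hydroxysteroid dehydrogenase gene, had 20.7, 22.3 and 22.4 CPM in Col-0 against 1 count in the line, a ratio of 1402 (95% interval 251 to 55397, counting error only), while TPR1-GFP and the *sid2-1* line had means of 22.7 and 22.1 CPM. AT3G46370, a leucine-rich repeat kinase gene, had 33.8, 27.2 and 32.9 CPM in Col-0 against 2 counts in the line, a ratio of 1007 (278 to 8322). These 3 genes had counts in every library of the 3 other genotypes.

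**Figure D5:**
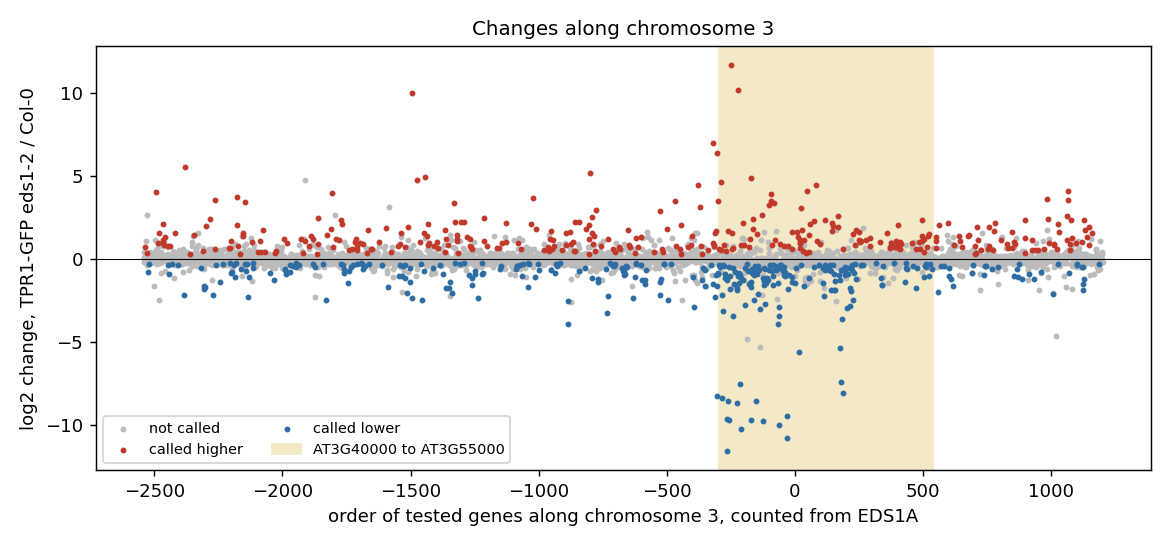
Log2 ratios of TPR1-GFP *eds1-2* to Col-0 for all tested genes of chromosome 3 in their order, counted from *EDS1A*; coloured points are called genes and the shaded band is AT3G40000 to AT3G55000. Fits of genes without counts in a group lie at the extremes of the scale, and 19.5% of genes fell in the band against 7.49% outside it over all chromosomes.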

How the data were processed

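Polyadenylated RNA of 12 leaf libraries had been sequenced after TrueSeq library preparation, per the labels. The deposited table holds raw read counts per gene and library, made by the authors with TopHat2, HTSeq and limma on TAIR10, per the submitters' processing notes. Versions, counting settings and strand are not given in the sources used here, so reads of overlapping or antisense genes cannot be told apart. Near-identical genes (*EDS1A* and AT3G48080, *CYP71A13* and its neighbour, antenna protein genes) can exchange reads. The lowest gene sum was 101 counts over 12 libraries, and genes below it were not analysed here.

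Groups followed the genotype labels. The stretch from AT3G40000 to AT3G55000, the members and the gene lists were chosen with earlier results of these data known. Tests used edgeR 4.0.16 under R 4.3.3: filterByExpr, TMM, a robust quasi-likelihood fit of 12 libraries with genotype as the only term, and Benjamini-Hochberg adjustment over 18877 genes, with calls under 0.05. SE is the size of the log2 ratio divided by the square root of its F statistic. Folds are ratios of group mean CPM. Where a group had 3 counts or fewer, they are ratios of summed counts over summed scaled library sizes. A group at 0 counts takes a floor of 3 counts over its 3 libraries, and ratios with 1 to 3 counts carry a 95% interval. Floor and interval cover counting error only. The fits were tested on simulated data. DESeq2 1.42.0, limma 3.58.1 (voom), other scalings, filters and designs and leaving out single libraries were alternatives.

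Genes named are *TPR1*, *EDS1A* and AT3G48080, then called genes whose libraries do not overlap and whose higher group has at least 5 CPM: the 12 largest rises and falls outside the stretch, 6 each within it, and the 5 with the smallest p in each direction. Members of the lists are named too, and AT1G44830 and *XTH18* were named after their values were seen. Between libraries of the same group chi-square divided by its degrees of freedom was above sampling noise. It was 6.61 for replicates 1 and 3 of the line and 25.1 to 37.8 for the other pairs. Each library was counted as a replicate, although such values do not show that libraries came from separate plants. Locations and promoters come from the RefSeq annotation of TAIR10.1, which holds 18777 of the loci.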

Additional observations from a re-analysis of the deposited data

How the results depend on the processing

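Outside the stretch, 1696 genes were higher and 1351 lower. Scaling left rises between 1687 (TMM without the stretch) and 2164 (library totals) and falls between 1386 and 806 in the same order. Scaling by RLE gave 1792 and 1188, by upper quartile 1969 and 1032, a minimum mean of 1 CPM 1597 and 1187, no filter 1696 and 1351, DESeq2 2095 and 1532, and limma voom 1604 and 1225. Fitting only the 6 libraries compared gave 1072 and 559. In that fit 40 of the named genes lost their call and 114 kept their result. Among the 40 were *PAD4*, *CBP60G*, *JAZ9*, *SWEET11* and *PSAD1* (adjusted p = 0.0725, 0.0589, 0.0594, 0.0693 and 0.0816). Outside the stretch 3 cysteine-rich kinases fell in place of 9, and 4 aliphatic glucosinolate genes rose in place of 8. Of camalexin and indole glucosinolate genes 0 rose and 2 fell, and of cold genes 0 and 3. A test against 1 log2 unit left 185 and 89 genes outside and 12 higher and 36 lower within the stretch, and under it the fall of *EDS1A* (log2 −1.44) was not called (adjusted p = 0.325). Leaving out single libraries gave 1103 to 1707 higher and 715 to 1209 lower genes outside, and 62 to 85 higher and 126 to 149 lower genes within. A wider stretch from AT3G30000, chosen after seeing the data, left 1693 higher and 1344 lower genes outside. The rise of *TPR1* was called under every alternative.

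Replicate numbers did not pair the libraries: deviations of libraries with the same number correlated at −0.194, 0.111 and 0.255, and 1 of the 3 libraries of the line was closest to its own number. With the replicate number as a block 1565 genes were higher and 1192 lower outside the stretch and 84 and 150 within it, and 8 of the named genes lost their call.

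Of the named genes, uncalled ratios changed sign for *ICS1* (0.16 with limma voom, and −0.54 to 0.52 when single libraries were left out), *FMO1* (−1.90 to 0.21, likewise) and *DND2* (−0.060 to 0.18, likewise). The cause was not tested. The 3 libraries per group, with 21195080 to 27854906 counts each, limit what could be called, and at this depth genes near 1 CPM rest on few counts.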
